A study of Rattus norvegicus with 196 samples.

Results

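Pfkl, Mdh2, Ckb and Aacs encode 4 enzymes of energy metabolism, and their transcripts were followed through bulk RNA-seq of rat brain regions after chronic treatment with the antidepressant fluoxetine. They are 4 of 29188 transcripts counted and were found by the names and transcript identifiers that the study pairs: Pfkl is ENSRNOT00000001625, Mdh2 ENSRNOT00000001958, Ckb ENSRNOT00000015122 and Aacs ENSRNOT00000001292. The list that holds these names comprises only transcripts that the study called in at least 2 regions of the same samples, so a change of the 4 transcripts with treatment is not independent evidence of its direction. All samples came from male Long-Evans rats of 2 months at the start. FT rats drank fluoxetine at 18 mg/kg for 6 weeks and Sham rats drank water, with no genetic change in either group. Each sample pooled punches of 1 brain region from several animals, so n counts pools, and the samples of 1 replicate number and treatment in different regions come from 1 pool of animals.

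Phosphofructokinase, liver type (Pfkl) carries out the committed step of glycolysis, in which fructose 6-phosphate is phosphorylated. Mitochondrial malate dehydrogenase (Mdh2) oxidises malate to oxaloacetate in the TCA cycle and takes part in the malate-aspartate shuttle, which moves reducing equivalents into mitochondria. Creatine kinase, brain type (Ckb) moves phosphate between ATP and creatine in the cytosol and so buffers ATP where it is used. Acetoacetyl-CoA synthetase (Aacs) activates the ketone body acetoacetate in the cytosol for the synthesis of cholesterol and fatty acids. In brain, neurons depend on glucose oxidation and on the creatine system, and ketone bodies serve as an alternative fuel and as a source of carbon for lipids.

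The 250 bases before the RefSeq gene start are shown for the 4 genes because the transcripts were higher in FT together. They come from RefSeq on the build GRCr8, 5′ to 3′ on the strand of the gene, whereas the reads were aligned by the authors to rn5, and whether the counted transcripts begin at these starts was not examined. Capitals mark matches on either strand to any of 7 motifs. Those for general promoter factors were the TATA box, spelled TATAAA, the CCAAT box and the GC box, spelled GGGCGG. The others were the cAMP response element, spelled TGACGTCA, the E-box, spelled CACGTG, the ERR motif, spelled TCAAGGTCA, and the NRF1 motif.
Pfkl, chr20:10663715-10663964, plus strand: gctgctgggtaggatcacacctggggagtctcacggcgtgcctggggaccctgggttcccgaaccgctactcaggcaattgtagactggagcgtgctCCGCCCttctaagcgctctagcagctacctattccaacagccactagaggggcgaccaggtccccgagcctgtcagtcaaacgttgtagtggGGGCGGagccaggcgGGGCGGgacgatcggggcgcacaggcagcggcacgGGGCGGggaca
Mdh2, chr12:26543842-26544091, minus strand: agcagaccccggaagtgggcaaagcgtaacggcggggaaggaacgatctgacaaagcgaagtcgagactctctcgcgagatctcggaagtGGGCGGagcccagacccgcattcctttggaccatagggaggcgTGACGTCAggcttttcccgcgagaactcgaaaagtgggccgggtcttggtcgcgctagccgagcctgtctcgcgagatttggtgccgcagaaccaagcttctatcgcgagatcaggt
Ckb, chr6:136553465-136553714, minus strand: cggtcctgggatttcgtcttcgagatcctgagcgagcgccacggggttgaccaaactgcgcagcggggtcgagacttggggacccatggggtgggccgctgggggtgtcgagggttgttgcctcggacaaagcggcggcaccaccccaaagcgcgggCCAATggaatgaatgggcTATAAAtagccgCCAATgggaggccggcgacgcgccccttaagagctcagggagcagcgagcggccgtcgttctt
Aacs, chr12:36817775-36818024, minus strand: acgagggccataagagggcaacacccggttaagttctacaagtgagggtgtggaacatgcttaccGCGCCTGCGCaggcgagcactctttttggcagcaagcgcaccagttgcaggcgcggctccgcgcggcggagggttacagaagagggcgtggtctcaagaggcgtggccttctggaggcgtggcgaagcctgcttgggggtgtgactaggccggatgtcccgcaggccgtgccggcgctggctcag

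All 4 windows were rich in G and C, with 66.0% in Pfkl, 60% in Mdh2 and 64.8% in Ckb and Aacs, against a median of 51.2% over 33469 rat promoters of the same length. They held 19, 26, 25 and 22 CpG dinucleotides respectively, where the median promoter held 5. Pfkl had 4 GC boxes, a motif present in 30.5% of all promoters, and Mdh2 had 1. The Mdh2 window also held a full cAMP response element 117 to 110 bases before the start, which 1.59% of promoters have. Ckb alone had a TATA box, 75 to 70 bases before the start, and had 2 CCAAT boxes around it. Those motifs occurred in 12.9% and 34.0% of promoters. Aacs had an NRF1 motif, found in 3.75% of promoters. None of the 4 windows held an E-box (5.59% of promoters) or an ERR motif (0.388%). No motif searched for was shared by all 4 genes, and these matches are letters in a window, not measured binding sites.

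The data comprised 196 samples, 98 FT and 98 Sham, from 25 regions, with replicates numbered 1, 3, 4 and 5. Samples of FT and Sham that carry 1 replicate number form a pair. Total counts on transcripts ranged from 4586 to 50893913 with a median of 11921178, and the shallowest libraries were the Sham samples of replicate 3 in Nts (nucleus of the solitary tract, 4586 counts) and ILC (infralimbic cortex, 543403). In the medial preoptic area (mPoA) 4 Sham and 2 FT samples were present and in the arcuate nucleus (Arc) 2 Sham and 4 FT, so both had only pairs 4 and 5. In CGC, the cingulate cortex, the pair of replicate 1 was left out, although the study does not name the CGC replicates that it removed. The FT library of that pair had 83.3% of counts on its 50 most abundant transcripts, and 24.5% of its reads were ambiguous between features. The Sham ILC library of replicate 1 had a like profile (82.9% and 21.8%, 12853852 counts) but was kept wherever ILC and replicate 1 entered. Region identity was checked on marker genes in Sham. Th, for catecholamine synthesis, was highest in the ventral tegmental area (VTA, 155 to 426 CPM) and then in the locus coeruleus (LC, 24.2 to 317). The LC range overlapped those of raphe (2.60 to 188) and Arc (58.9 to 93.7). Adora2a was highest in the nucleus accumbens core (NAcC, 45.4 to 238) and shell (NAcSh, 69.1 to 141), overlapping the basolateral amygdala (52.0 to 130). Hcrt ranked lateral hypothalamus (LH) behind the ventromedial hypothalamus (VMH), with SDs above the means (152 ± 277 and 219 ± 360 CPM). The markers thus do not settle the identity of each punch. Oxt was highest in mPoA, where 1 of 4 Sham samples had 2687 CPM and the others at most 9.73. In PVN, which the study names as the paraventricular nucleus of the thalamus, Oxt ranked 7 and Avp 9 of 25 regions and Slc17a6, a glutamate transporter, ranked 2.

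Counts for the 4 transcripts were ample outside the shallow libraries. Median counts per sample were 1129.5 for Pfkl, 6345.5 for Mdh2, 11980.5 for Ckb and 448 for Aacs. In the Sham Nts sample of replicate 3 there were 1 read of Pfkl, 4 of Ckb and 0 of Mdh2 and Aacs, and in the Sham ILC sample of replicate 3 there were 17, 182, 15 and 1 read respectively. Values that rest on these 2 samples carry little information, and several results below are also given without them. In the counts by region they enter Mdh2 in ILC and Aacs in Nts, both called higher by DESeq2 and higher in all 4 pairs, and Pfkl in ILC and Mdh2 in Nts, higher in all 4 pairs. Levels are given as CPM, counts scaled to the library size after TMM normalization over all samples, and are compared within a gene only, since transcript lengths were not used.

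In FT, the 4 transcripts were higher than in Sham almost everywhere, but few single regions passed the test. The log2 fold-change (log2FC, FT over Sham) from edgeR's quasi-likelihood test was positive in 99 of 100 combinations of transcript and region. Pfkl, Mdh2 and Aacs were positive in 25 of 25 regions and Ckb in 24, the exception being LC at -0.16. Of 11365 transcripts tested in all regions, 4.13% were positive in all 25. The median log2FC was 0.89 for Pfkl, 0.62 for Mdh2, 0.66 for Ckb and 0.68 for Aacs. Pfkl ranged from 0.19 in Nts to 1.22 in mPoA, Mdh2 from 0.13 in the dorsomedial thalamus (MDT) to 1.41 in ILC, Ckb from -0.16 to 1.42 in PVN and Aacs from 0.18 in the insular cortex (InsularC) to 1.24 in Arc. Mdh2 in ILC rests in part on the Sham library with 543403 counts, and the next highest value of Mdh2 was 1.36 in mPoA.

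A transcript was called in a region where its log2FC was at least 0.32 in size and its p, adjusted by Benjamini-Hochberg over the transcripts of that region, did not exceed 0.1. By that rule 6 of 100 combinations were called, each higher in FT, where 1.01% of all combinations of transcript and region were called higher. An unadjusted p under 0.05 with a positive log2FC occurred in 69 of the 100, against 7.47% of all combinations. DESeq2 on the same counts called 41 of the 99 combinations to which it gave an adjusted p, all higher, against 2.58% of all combinations. By gene, DESeq2 called Pfkl in 14 regions, Ckb in 12, Mdh2 in 9 and Aacs in 6. FT exceeded Sham in every pair in 65 of 100 combinations (14.8% of all), and every FT sample exceeded every Sham sample in 5 (2.35% of all). Those 5 were Aacs in mPoA and in BNST, the bed nucleus of the stria terminalis, Mdh2 in CGC, and Pfkl and Ckb in Arc. Mdh2 in CGC separated only without the pair of replicate 1, in which it went from 702 CPM in Sham to 463 in FT, and with all 8 CGC samples the groups overlapped.

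**Figure D1:**
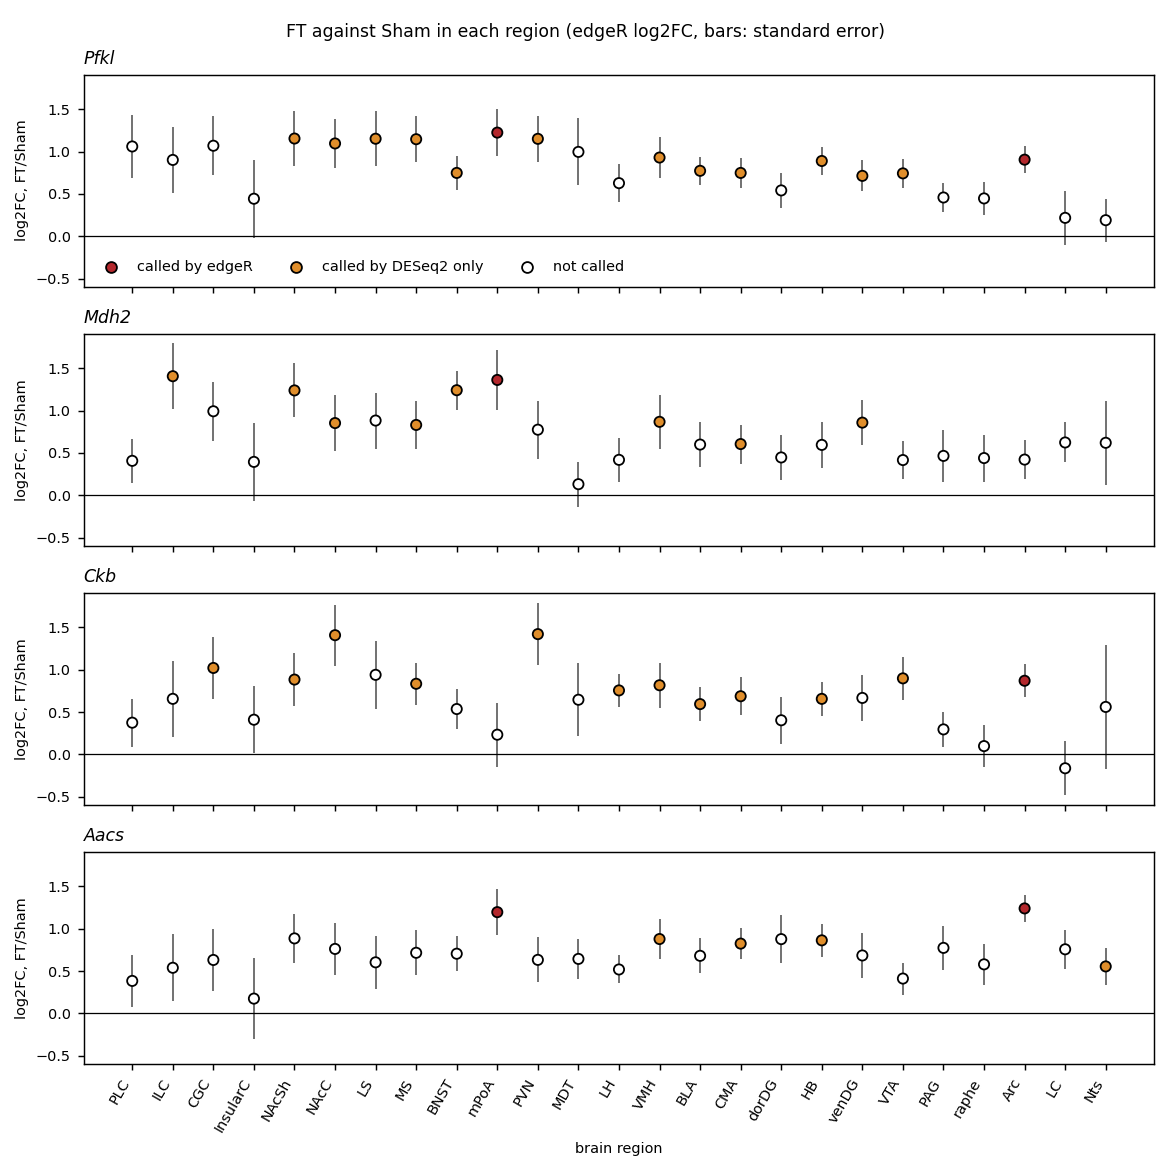
Each panel plots, for 1 transcript, the edgeR log2FC of FT over Sham (vertical axis) in the 25 brain regions (horizontal axis), with bars of 1 standard error. Filled red points are called by edgeR, orange points by DESeq2 alone, and all points but Ckb in LC lie above 0.

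All 6 edgeR calls fell in mPoA and Arc, the regions with only pairs 4 and 5. The blocked fit there leaves 1 residual degree of freedom, so its p-values rest mostly on spread shared between transcripts. In mPoA, 4.85% of transcripts were called higher and 9.59% in either direction. In Arc, 13.7% were called higher and 24.6% in either direction, so a call there is common. The unpaired samples of replicates 1 and 3 in these regions do not bear on the estimate, since the replicate number entered as a block. With all samples and no replicate block none of the 6 was called, as 1 transcript in mPoA and 0 in Arc were in all. In pairs 4 and 5 with no block all 6 were called, with adjusted p from edgeR between 0.00971 and 0.0745, where 4.16% of transcripts in mPoA and 29.9% in Arc were called in either direction.

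Aacs had the clearest separation in mPoA. Its Sham samples had 24.2, 18.2, 18.8 and 26.8 CPM in replicates 1, 3, 4 and 5 and its FT samples 45 and 58.8 CPM in replicates 4 and 5. The groups did not overlap, with means of 22 ± 4.20 CPM (SD, n = 4) in Sham and 51.9 ± 9.78 CPM (n = 2) in FT. edgeR gave a log2FC of 1.20 with a standard error of 0.27 (adjusted p = 0.00174). In Arc, Aacs went from 24.9 CPM in Sham to 50.7 in FT in pair 4 and from 27.4 to 75.2 CPM in pair 5. FT samples without a partner, from replicates 1 and 3, had 22 and 17.9 CPM, below both Sham samples, so over all samples the groups overlapped. edgeR gave an Arc log2FC of 1.24 with a standard error of 0.16 (adjusted p = 0.0159).

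Pfkl was called in both regions. In mPoA its Sham samples had 94.7, 112, 39.7 and 47.8 CPM in replicates 1, 3, 4 and 5, and its FT samples 87.6 and 118 CPM in replicates 4 and 5. Within each pair FT was well above Sham, but unpaired Sham samples lay among the FT values. edgeR gave a log2FC of 1.22 with a standard error of 0.28 (adjusted p = 0.00230). In Arc, the Sham samples had 55.0 and 58.2 CPM and the FT samples 213, 143, 93.5 and 120 CPM in replicates 1, 3, 4 and 5, with no overlap. edgeR gave an Arc log2FC of 0.90 with a standard error of 0.16 (adjusted p = 0.0278).

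Mdh2 was called in mPoA only. Its Sham samples had 729, 389, 145 and 231 CPM there and its FT samples 476 and 467 CPM in replicates 4 and 5. The pairs rose together, while the unpaired Sham sample of replicate 1 was the highest of all. edgeR gave a log2FC of 1.36 with a standard error of 0.35 (adjusted p = 0.00802). In Arc, pair 4 went from 304 CPM in Sham to 523 in FT and pair 5 from 492 to 516. The unpaired FT samples of Mdh2 in Arc had 915 and 308 CPM, on either side of the pairs, and the log2FC of 0.42 (standard error 0.23) had an adjusted p of 0.247 from edgeR.

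Ckb was called in Arc only. Its Sham samples had 259 and 269 CPM and its FT samples 1900, 3042, 442 and 528 CPM in replicates 1, 3, 4 and 5. The paired FT samples were higher than both Sham samples, and the FT samples of replicates 1 and 3 were far higher again, as Ckb was in those replicates in other regions and in both groups. edgeR gave a log2FC of 0.87 with a standard error of 0.20 (adjusted p = 0.0421). In mPoA, Ckb had 724, 2976, 419 and 533 CPM in Sham and 502 and 614 CPM in FT, and the log2FC of 0.23 (standard error 0.38) had an adjusted p of 0.840 from edgeR. Whether the response of a transcript differs between mPoA and Arc was not tested.

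**Figure D2:**
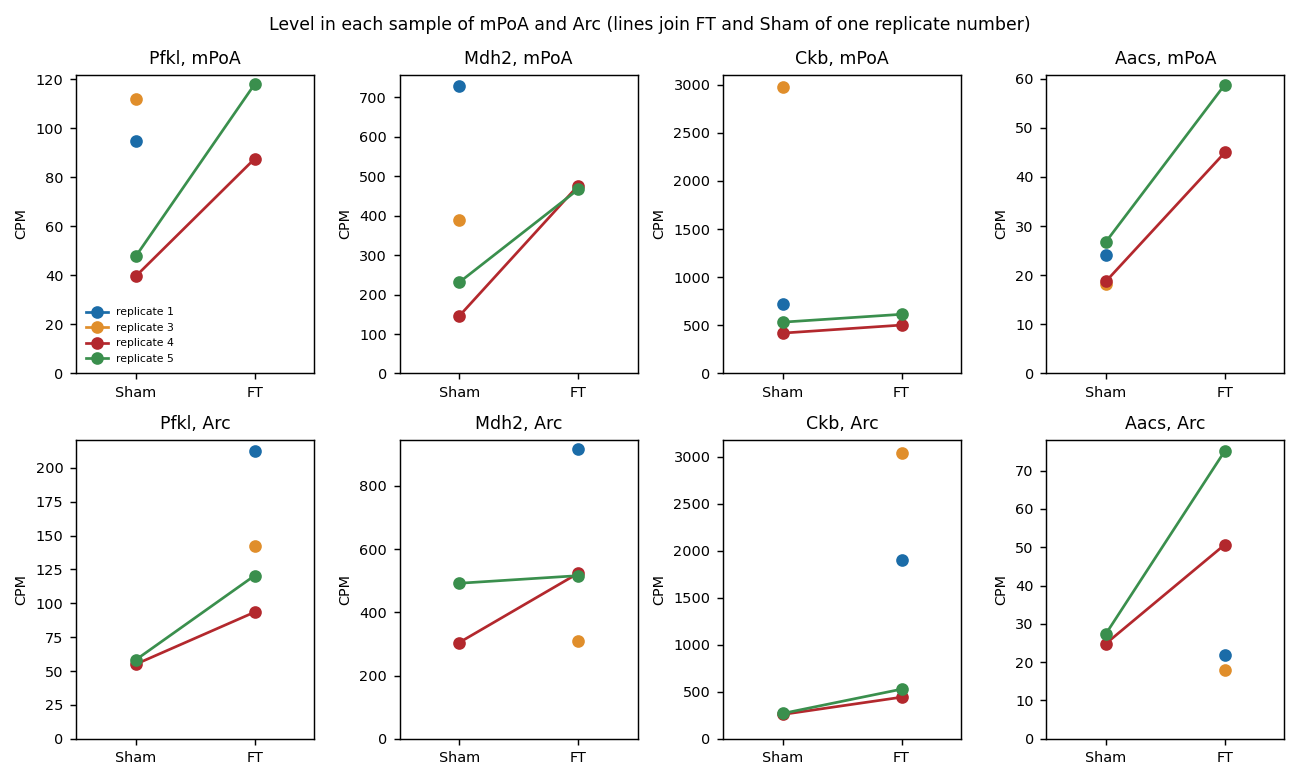
CPM (vertical axis, from 0) of each transcript in every Sham and FT sample of mPoA (upper row) and Arc (lower row), coloured by replicate, with a line joining FT and Sham of the same number. The lines of replicates 4 and 5 rise in all panels, and unpaired samples of replicates 1 and 3 lie far above the rest for Ckb in Arc.

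Markers of cell types and of neighbouring nuclei also differed between the groups in these regions. In Arc, 3 of 4 astrocyte markers (Gja1, Slc6a11, Kcnj10) were called lower and Slc7a10 higher, and their summed level was 370 to 391 CPM in FT and 521 to 532 CPM in Sham. Among 5 oligodendrocyte markers 2 were called higher and 2 lower, and their sum was 185 to 258 CPM in FT and 335 to 359 CPM in Sham. In Arc 1 of 2 neuron markers (Gad2) and 1 of 2 microglia markers (Cx3cr1) were called lower, and Ttr, a choroid plexus marker, higher. Of the region markers, Hcrt, Oxt and Avp were called higher and Th lower in Arc, with Th at 93.7 and 58.9 CPM in Sham and 34.1 and 37.1 CPM in FT in pairs 4 and 5. Oxt had 10493 CPM and Avp 6452 CPM in the unpaired FT Arc sample of replicate 3. The other FT samples of Arc had at most 39.1 and 82.5 CPM, and the Sham samples at most 3.82 and 3.11 CPM. That sample is among the FT Arc samples given above for the 4 enzymes. In mPoA, Slc6a11 and Kcnj10 were lower, Slc7a10, Sox10 and Hcrt higher, and the astrocyte sum was 329 to 335 CPM in FT and 273 to 418 CPM in Sham. None of these markers was at 0, and the study had itself reported Slc6a11, Kcnj10 and Slc7a10 as changed in these samples. Their part in the result for the 4 enzymes was not tested, and in such punches fewer cells of a type and less RNA per cell cannot be told apart.

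In the dentate gyrus, dorsal (dorDG) and ventral (venDG), the 4 transcripts were higher in FT on average but none was called by edgeR. For Pfkl in venDG, Sham had 196, 140, 67.1 and 75.0 CPM and FT 297, 209, 113 and 125 CPM in replicates 1, 3, 4 and 5, so that each pair rose by a like proportion although the replicates differed widely in level. edgeR gave a log2FC of 0.71 with a standard error of 0.18 (adjusted p = 0.325, and 0.0186 from DESeq2). In dorDG, Pfkl had 150, 111, 60.4 and 67.7 CPM in Sham and 191, 116, 119 and 120 CPM in FT, with a log2FC of 0.54 (standard error 0.21). For Aacs in dorDG, Sham had 29.9, 19, 27.1 and 35.6 CPM and FT 35.5, 21.9, 100.2 and 76.2 CPM. The rise of 0.88 on the log2 scale (standard error 0.28) came mainly from replicates 4 and 5. In venDG, Aacs had 21.9, 22.7, 23.0 and 29.5 CPM in Sham and 35.1, 16, 55.9 and 54.4 CPM in FT, higher in 3 of 4 pairs.

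Mdh2 in venDG had 584, 327, 243 and 553 CPM in Sham and 1216, 488, 664 and 617 CPM in FT, higher in 4 of 4 pairs with a log2FC of 0.86 (standard error 0.27). In dorDG it had 700, 285, 264 and 661 CPM in Sham and 924, 353, 661 and 595 CPM in FT, higher in 3 of 4 pairs. Ckb in venDG had 1160, 2242, 331 and 438 CPM in Sham and 2089, 4639, 419 and 519 CPM in FT, again higher in every pair. In dorDG, Ckb had 1677, 1941, 244 and 308 CPM in Sham and 1298, 2529, 424 and 563 CPM in FT, higher in 3 of 4 pairs. No adjusted p from edgeR for the 4 transcripts in dorDG and venDG was below 0.268. DESeq2 called Mdh2 (adjusted p = 0.0669) as well as Pfkl in venDG, and none of the 4 in dorDG.

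In the raphe, which holds serotonin neurons, the 4 transcripts were again not called. Pfkl had 158, 113, 57.2 and 34.9 CPM in Sham and 193, 105, 88.8 and 72.3 CPM in FT. Mdh2 had 829, 618, 532 and 225 CPM in Sham and 1234, 494, 598 and 615 CPM in FT. Both were lower in FT in replicate 3 and higher in the other pairs. Ckb had 2585, 5867, 1032 and 531 CPM in Sham and 2723, 4089, 1196 and 876 CPM in FT. Aacs had 40.4, 28.2, 26.9 and 23.6 CPM in Sham and 44.4, 25.7, 60 and 52.3 CPM in FT. Replicate 3 fell and the other pairs rose for these transcripts as well, and the log2FC values were 0.45 (Pfkl), 0.44 (Mdh2), 0.10 (Ckb) and 0.58 (Aacs), with standard errors of 0.20 to 0.28.

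To ask whether the rise held over the brain, paired log2 ratios (FT over Sham) were averaged over the 22 regions with 4 pairs, giving 1 value per replicate. For Pfkl these means were 0.58, 0.40, 1.46 and 0.69 in replicates 1, 3, 4 and 5. For Mdh2 they were 0.56, 1.05, 1.32 and 0.30. For Ckb they were 0.40, 0.70, 0.89 and 0.69, and for Aacs 0.36, 0.55, 1.23 and 0.77. Every replicate was positive for every transcript, and replicate 4 was the highest in each case. The Mdh2 and Aacs means of replicate 3 rest on Nts and ILC, where the Sham libraries are shallow, and without these regions were 0.49 and 0.14.

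The mean over replicates was 0.78 for Pfkl (standard error 0.27), 0.81 for Mdh2 (0.28), 0.67 for Ckb (0.21) and 0.73 for Aacs (0.24). No call was made, with an adjusted p of 0.312 from limma for each, while the unadjusted p lay between 0.00593 and 0.0102. Over all 17302 transcripts, 0% were called and 16% (2763) had an unadjusted p under 0.05. An exact sign permutation test over the 4 pairs gave p = 0.125 for each transcript, two-sided, the smallest that 4 pairs allow. Without Nts and ILC the means were 0.80, 0.66, 0.66 and 0.65 for Pfkl, Mdh2, Ckb and Aacs. Without replicate 1 all 4 transcripts were called (adjusted p = 0.0839 from limma), among 1037 transcripts (5.99%) that were all higher in FT, so the call rests on which replicates enter.

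The ratio was then tested for differences between replicate pairs and between regions, with each region as a separate value although regions share pools of animals. The replicate term in limma passed for Pfkl (adjusted p = 1.2e-05), Aacs (0.0468) and Mdh2 (0.0802) but not for Ckb (0.261), where 43% of all transcripts passed. Without Nts and ILC it passed for each of them, Ckb included (adjusted p = 0.0339 from limma), as it did for 66.7% of all transcripts. The region term passed for none of the 4, with adjusted p from limma between 0.787 and 0.907, and 0.00578% of all transcripts passed. Without Nts and ILC, 1566 transcripts (9.05%) passed the region term and Ckb had the lowest adjusted p of the 4, at 0.11.

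Pair by pair, FT was higher in 25 of 25 regions for all 4 transcripts in replicate 4. In replicate 5 it was higher in 25 regions for Pfkl and Ckb, 24 for Aacs and 18 for Mdh2. In replicate 1 the numbers were 19, 16, 19 and 19 of 22 regions for Pfkl, Ckb, Aacs and Mdh2, and in replicate 3 they were 20, 18, 15 and 20 of 23. The median ratio of Mdh2 went from 0.27 in replicate 5 to 1.45 in replicate 4, and that of Aacs from 0.20 in replicate 3 to 1.24 in replicate 4. Over all transcripts, 48.0%, 50.8%, 50.2% and 48.2% of ratios were above 0 in replicates 1, 3, 4 and 5.

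**Figure D3:**
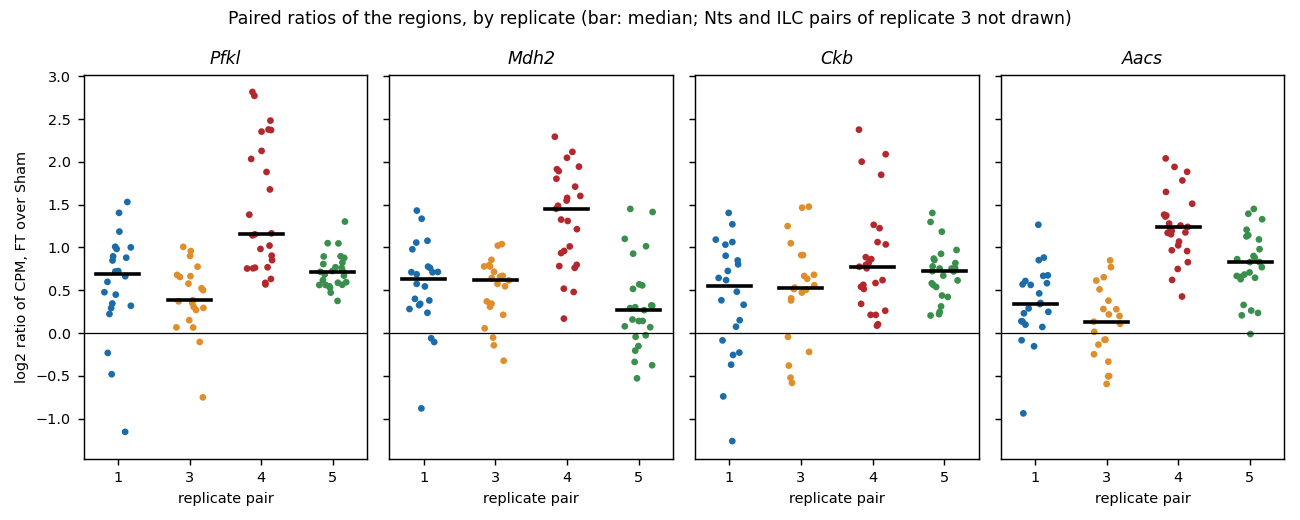
Each point is 1 region, with the log2 ratio of CPM in FT over Sham (vertical axis) by replicate pair (horizontal axis) for each transcript, and bars mark medians (the Nts and ILC pairs of replicate 3 are not drawn). Points of replicate 4 are all above 0 and reach 2.82 for Pfkl in MDT, whereas the medians of replicate 3 lie lower for Pfkl and Aacs.

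Levels differed between replicates in both groups. Among regions with 3 or 4 Sham samples, the sample of replicate 4 was the lowest in 21 of 24 for Pfkl, 18 of 24 for Mdh2 and 21 of 24 for Ckb. The median Sham level of Pfkl was 33.7 CPM in replicate 4 against 105, 94.2 and 58.2 CPM in replicates 1, 3 and 5, and in FT it was 81.7 CPM against 177, 127 and 93.1 CPM. For Mdh2 the Sham median was 147 CPM in replicate 4 against 702, 310 and 414 CPM in replicates 1, 3 and 5, while the FT medians were 520, 1011, 446 and 491 CPM in replicates 4, 1, 3 and 5. For Ckb replicate 4 was also the lowest FT sample in 19 of 24 regions, with a Sham median of 316 CPM against 1476, 3103 and 511 CPM in replicates 1, 3 and 5 and an FT median of 601 against 2196, 4447 and 866 CPM. For Aacs the Sham medians were 24.2, 18.6, 19.5 and 27.4 CPM in replicates 1, 3, 4 and 5. Its FT medians were 32, 22.9, 45 and 51.3 CPM. Replicate 5 was the highest Sham sample of Aacs in 15 of 24 regions, and replicate 4 the highest FT sample in 14.

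Other measures of the libraries moved with the replicates too. In pairs 4 and 5 the mean ratio of 4 astrocyte markers was below 0 in 24 and 25 of 25 regions, with medians of -0.76 and -0.92, against 16 of 22 regions and a median of -0.29 in pair 1 and 11 of 23 and 0.03 in pair 3. These were Gja1, Slc6a11, Kcnj10 and Slc7a10. Slc7a10 was called higher in mPoA and Arc, so the mean does not stand for each marker. The mean of the 2 neuron markers, Slc17a6 and Gad2, was lower in FT in 24 of 25 regions in pair 4, 19 of 25 in pair 5, 15 of 23 in pair 3 and 11 of 22 in pair 1, with medians of -0.49, -0.22, -0.40 and 0.03. In Sham the regional mean of Slc17a6 ran from 11.8 CPM in NAcSh to 424 CPM in MDT, so these markers do not stand for all neurons. The 2 microglia markers were higher in FT in 14 of 22 regions in pair 1 and 17 of 23 in pair 3, and in 7 and 3 of 25 in pairs 4 and 5. The mean of the 5 region markers was higher in FT in 11 of 22, 20 of 23, 22 of 25 and 21 of 25 regions in pairs 1, 3, 4 and 5. Its medians were -0.04, 0.56, 0.52 and 0.54. In the same order the medians were 0.03, -0.04, -0.04 and 0.23 for 5 oligodendrocyte markers. They were -0.40, -0.07, -0.35 and 0.01 for 3 markers of blood and choroid plexus. The share of reads outside annotated features was higher in FT in 21 of 25 pairs of replicate 4 (median 47.5% in FT, 41.1% in Sham) and lower in FT in 18 of 25 pairs of replicate 5. The 50 most abundant transcripts took a median of 67.4% of counts in FT and 68.6% in Sham in replicate 3, and 28.2% to 36.8% in the other replicates. The part of these differences in the response of the 4 enzymes was not tested.

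Because mPoA and Arc have pairs 4 and 5 alone, the fit was repeated on these pairs in every region, a choice made once the data had been seen. Then 60 of 100 combinations were called, all higher in FT, against 6.32% of all combinations. Pfkl was called in 23 of 25 regions, all but PVN and PAG, the periaqueductal grey. Aacs was called in 18, Mdh2 in 13 and Ckb in 6. In most groups the libraries of replicates 4 and 5 were the most alike. The chi-square per degree of freedom between libraries of FT Arc was 66.6 for replicates 4 and 5. For the other combinations of replicates there it was 465 to 1666. In Sham mPoA it was 230 for replicates 4 and 5 and 331 to 1327 for the others. These fits thus rest on replicates that were more alike than the rest.

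Untreated levels overlapped widely between regions. In Sham, mean Pfkl was highest in venDG (120 ± 60.6 CPM, SD, n = 4) and dorDG (97.2 ± 41.6, n = 4), followed by CMA, the centromedial amygdala (92.0 ± 46.0, n = 4), and lowest in CGC (54.0 ± 37.9, n = 3) and MS, the medial septum (55.6 ± 31.6, n = 4). CGC lacks replicate 1 here, and with it had 56.0 ± 31.2 CPM, above MS. Mdh2 was highest in raphe (551 ± 251 CPM, n = 4) and lowest in ILC (234 ± 136, n = 4) with all libraries. Without the shallow ones Nts was highest (650 ± 270, n = 3) and CGC lowest (242 ± 116, n = 3). Ckb was highest in LC (2793 ± 2114 CPM, n = 4) and raphe (2504 ± 2407, n = 4) and lowest in Arc (264 ± 7.62, n = 2), where only replicates 4 and 5 were sampled. Aacs was highest in InsularC (39.0 ± 11.8 CPM, n = 4) and CGC (33.2 ± 12.1, n = 3) and, without the shallow libraries, lowest in MS (18.7 CPM, range 13.6 to 22.6, n = 4), with Nts at 23.3 ± 1.04 CPM (n = 3). With all libraries Nts had 17.5 ± 11.7 CPM (n = 4), including 1 library at 0. With all libraries, in none of the 24 steps of this order did neighbouring regions differ by more than the larger SD of the pair, for any of the 4 transcripts. The ranges of neighbours were apart in 1 step, ILC over Arc for Ckb.

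The replicate number set much of the level. The Sham sample of replicate 3 was the highest in 21 of 24 regions for Ckb, and that of replicate 1 in 22 of 24 regions for Mdh2. With the replicate as a block, edgeR's test over the 25 regions passed for Ckb (adjusted p = 0.00095), Mdh2 (0.0057), Aacs (0.00825) and Pfkl (0.0790), as it did for 75.6% of transcripts. Without the block it passed for none of the 4 and for 32% of transcripts. Samples of different regions from 1 pool of animals entered these Sham tests, and the contrast below, as separate values. Leaving out replicate 1, 3 or 4 in turn ended the Pfkl call, and leaving out replicate 4 ended that of Mdh2 (adjusted p = 0.438 from edgeR).

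Brainstem nuclei (raphe, LC and Nts) were then set against cortex (PLC, the prelimbic cortex, ILC, CGC and InsularC) in Sham. Ckb was higher in brainstem by 1.248 on the log2 scale (standard error 0.22, adjusted p = 8.8e-07 from edgeR) and Mdh2 by 0.79 (standard error 0.18, adjusted p = 0.000139 from edgeR), as were 30.3% of all transcripts tested, with 58% called in either direction. Without the shallow Nts and ILC libraries these differences were 1.36 and 0.83. Pfkl differed by 0.26 (standard error 0.18, adjusted p = 0.239 from edgeR), a value that was -0.20 without replicate 4 and 0.04 with median-ratio size factors. Aacs differed by -0.30 (standard error 0.14, adjusted p = 0.067 from edgeR), short of the minimum fold, and was called lower in brainstem with median-ratio size factors and without replicate 1 or 4. Mdh2 lost its call without replicate 4, at 0.37 (adjusted p = 0.128 from edgeR).

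**Figure D4:**
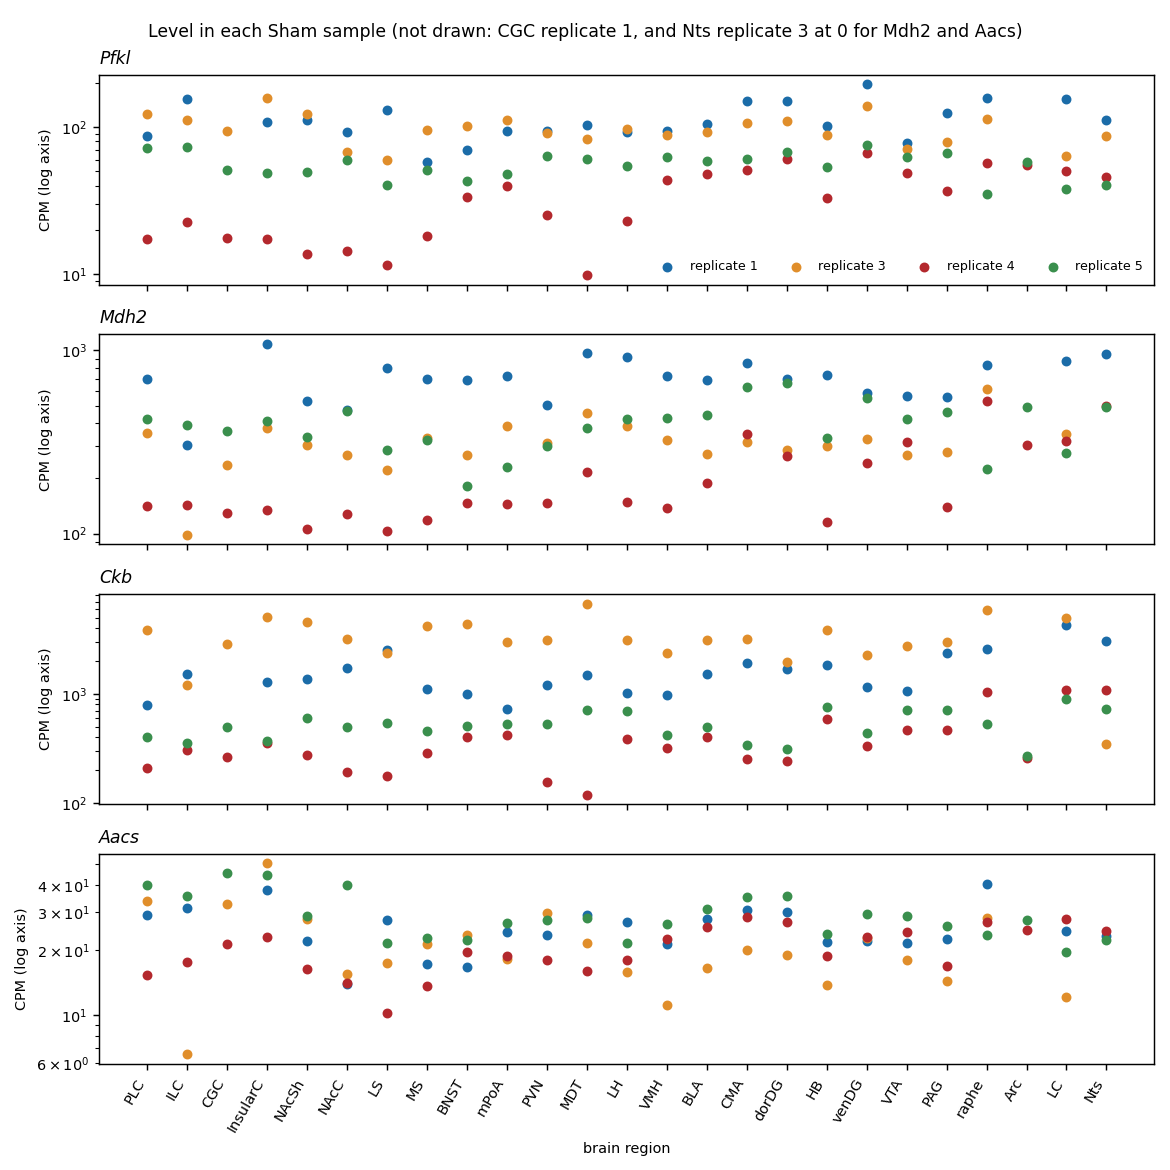
CPM on a log axis (vertical) of every Sham sample by brain region (horizontal), coloured by replicate, for each transcript. The CGC sample of replicate 1 and values of 0 are not drawn, and replicate 3 is on top in 21 of 24 regions for Ckb and replicate 1 in 22 of 24 for Mdh2.

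The ratios of the 4 transcripts varied together across pairs. Over 93 pairs, without the shallow Nts and ILC pairs of replicate 3, Pearson's r of the log2 ratios was 0.684 for Pfkl and Aacs, 0.657 for Pfkl and Ckb and 0.642 for Pfkl and Mdh2. It was 0.536 for Mdh2 and Aacs, 0.331 for Ckb and Aacs and 0.326 for Mdh2 and Ckb. With all 95 pairs the order was different, with 0.833 for Mdh2 and Aacs and 0.196 for Pfkl and Mdh2, since both Mdh2 and Aacs had no reads in the Sham Nts sample of replicate 3. These pairs share libraries, pools of animals and replicate numbers and are not independent. Across the 25 regions the Sham levels of the 4 transcripts were little alike, with r between -0.134 and 0.25 except for Mdh2 and Aacs (0.778). Without the shallow Nts and ILC libraries that value was 0.225, and the others lay between -0.242 and 0.478. Regions with missing replicates, such as Arc, entered these means without adjustment for the replicate.

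Among 1843 other named transcripts, those most like each member in Sham level over 25 regions, without the shallow libraries, were Ap1m1 for Pfkl (r = 0.803), Psmd13 for Mdh2 (0.891), Atp5d for Ckb (0.916) and Ap2m1 for Aacs (0.816). Atp5d is a subunit of the mitochondrial ATP synthase. The median r over the candidates was 0.0763, 0.0559, 0.109 and 0.026 respectively. With all Sham libraries the most alike were Mapk8ip2 (0.726), Flad1 (0.932), Atp5d (0.907) and Rap1gds1 (0.912), but the median candidate then had r = 0.506 for Mdh2 and 0.508 for Aacs, which have no reads in the Sham Nts library of replicate 3, and 0.0263 for Pfkl and 0.0683 for Ckb. The next in that order were Arl3 and Ehd1 for Pfkl, Cct7 and Spg7 for Mdh2, Ndufb2 and Cox6a1 for Ckb, and Stt3a and Pja2 for Aacs. By the FT to Sham ratio over 93 pairs, the most alike were Slc4a3 for Pfkl (0.853), Ppp1r11 for Mdh2 (0.895), RGD1303003 for Ckb (0.880) and Setdb1, a histone methyltransferase, for Aacs (0.804). With all 95 pairs they were Ppm1g (0.786), Pc (0.937), Sncb (0.846) and Rqcd1 (0.888), and Gpi followed Pc for Mdh2 (0.935). The named transcripts are those the study called, so likeness in the ratio is in part chosen.

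Of 12 other enzymes of these pathways, drawn from the same list of names, most moved less. Over 300 combinations with regions, edgeR called 5 higher and 4 lower in FT, against 1.01% of all combinations called higher and 1.93% in either direction. DESeq2 called 24 higher and 8 lower, against 4.33% of all combinations in either direction. The median of their mean log2 ratios over the 22 regions was 0.44, and 9 of 12 were positive. In glycolysis, Hk1, Gpi and Eno3 were each positive on average (0.48, 0.57 and 0.47), and Eno3, a muscle-type enolase, rose in Arc by 0.82 on the log2 scale (standard error 0.27, adjusted p = 0.0936 from edgeR). Gamt, the last enzyme of creatine synthesis, rose in Arc by 0.85 (standard error 0.16, adjusted p = 0.0281 from edgeR).

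Of 175 combinations of the 7 enzymes of the TCA cycle and related reactions with regions, edgeR called 3 higher and 2 lower. Over all combinations, 1.93% were called in either direction. Of the 5 calls 2 were in mPoA and 3 in Arc, where calls were common. Pyruvate carboxylase (Pc), which makes oxaloacetate from pyruvate, rose in mPoA by 0.79 and in Arc by 0.58, and malic enzyme 2 (Me2) rose in mPoA by 0.99 (adjusted p = 0.0797, 0.0861 and 0.0208 from edgeR). Citrate synthase (Cs) fell by 1.08 and Sdhc, a subunit of succinate dehydrogenase, by 0.58 on the log2 scale in Arc (adjusted p = 0.0295 and 0.0950 from edgeR). Sdhb, another subunit, was above 0 in all 25 regions, and edgeR called it in 0 regions and DESeq2 in 1. Suclg1 and Idh1 had no call by edgeR and 2 higher each by DESeq2, with 1 lower for Idh1. The 7 transcripts of this list had a median of 0.37 over the regions.

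Acat2, which joins acetyl-CoA units in the cytosol, was called lower in regions where Aacs had positive values (0.58 in the raphe, not called, and 1.24 in Arc, called), and the difference was not tested. It fell in the raphe (where 6.6% of transcripts were called in either direction and 3.08% higher) by 0.94 and in Arc by 0.80 on the log2 scale (adjusted p = 0.0567 and 0.0407 from edgeR). Its mean ratio over the 22 regions was -0.22, without a call.

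**Figure D5:**
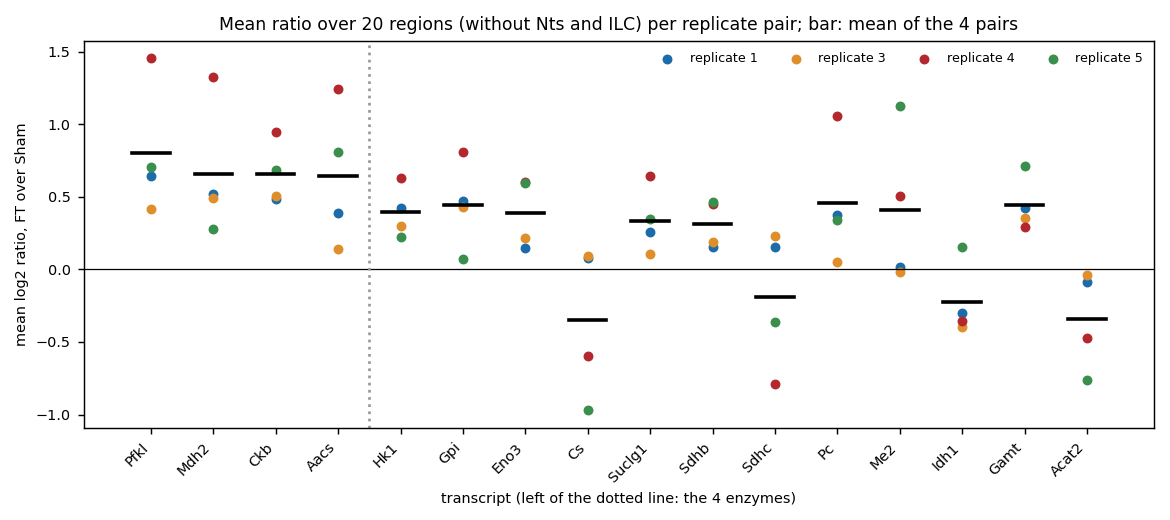
Mean log2 ratio of FT over Sham across 20 regions, without Nts and ILC (vertical axis), for each replicate (points) and over replicates (bars), for the 4 enzymes on the left and 12 other enzymes (horizontal axis). The points of all 4 replicates are above 0 for Pfkl, Mdh2, Ckb and Aacs, and the highest of each belongs to replicate 4.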

How the data were processed

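RNA from brain punches of 196 samples was analysed. The authors aligned the reads with STAR to rn5, counted them with HTSeq and deposited raw counts per Ensembl transcript, with no normalization. FastQC was also named in the submitters' processing notes. Total counts ranged from 4586 to 50893913, and counting error limits only libraries with few reads. FT was tested against Sham in each region with edgeR 4.0.16 in R 4.3.3 (TMM, quasi-likelihood test, replicate number as a block, and filterByExpr at its defaults of 10 counts and 15 in total). The standard error is the absolute log2FC over the square root of F. Mean ratios over 22 regions and the replicate and region terms were tested with limma 3.58.1 on log2 CPM with a prior count of 2. All adjusted p-values cover all transcripts tested.

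The study's methods say that both treatments of a replicate were handled in parallel. Same-numbered samples deviated together in 23 of 23 regions with 3 or more pairs, with a lowest r of 0.127 and a median of 0.607. Samples of different numbers were not compared, and replicates differ in level in both groups. These values of r therefore do not test which samples are partners. In the regions with 2 pairs, which hold all the edgeR calls, r was lower, at 0.103 in mPoA and -0.0714 in Arc. The methods removed 2 CGC replicates by principal components without naming them. The pair of replicate 1 was left out here by choice. P-values of the tests within a region and of the mean over regions measure the spread between pools. Those of the replicate and region terms and of the Sham tests measure scatter between regions of the same pools. They therefore take regions of 1 pool as separate values.

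Alternatives were DESeq2 1.42.0, no block, median-ratio size factors, no filter on low counts, a threshold of 0.05 on adjusted p, a prior count of 0.5, each replicate left out, all 8 CGC samples, regions without Nts and ILC and, added after the data were seen, pairs 4 and 5 only and Sham levels without the shallow libraries or with all of CGC. The scripts were tested on simulated data. The 4 transcripts and all lists were chosen with earlier results of these data known. Named by rule were the 4, up to 3 pathway transcripts a direction called in the most regions, and the 3 most alike to each member, and further pathway transcripts were named after their values were seen. The values in every sample are given for regions with a call and for dorDG, venDG and raphe. Transcripts that share reads can be undercounted, and 1 pathway transcript is not reported here.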

Additional observations from a re-analysis of the deposited data

Results flagged for a closer look

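Of 184 groups of 4 samples examined (1 transcript in 1 region and treatment), 21 held a sample that stood apart from the others by Dixon's test at the 95% level, where chance marks about 1 in 20 groups. Of these samples, 20 were the highest of their group. Most belonged to replicate 1 for Mdh2 and to replicate 3 for Ckb.

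Mdh2 was far above the other FT samples in the FT sample of replicate 1 in NAcC (997 CPM), LS, the lateral septum (1011), MS (1189), BNST (1184), MDT (897), VMH (1188), VTA (904), PAG (907), raphe (1234) and LC (843). The other FT samples of these regions had 322 to 615 CPM. In LC the Sham sample of replicate 1 stood apart as well, at 880 CPM against 277 to 350 CPM. Pfkl was high in the FT sample of replicate 1 in dorDG, at 191 CPM against 116 to 120 CPM.

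Ckb was far above the others in the Sham samples of replicate 3 in PLC (3809 CPM), BNST (4365) and mPoA (2976), and in the FT samples of replicate 3 in InsularC (3847), BNST (6931) and LC (4790). Both groups of a replicate were affected in BNST for Ckb and in LC for Mdh2, and the paired ratio sets such samples against a partner of the same number.

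Aacs stood apart in the Sham sample of replicate 5 in NAcC, at 40.2 CPM against 13.9 to 15.4 CPM, and in venDG, at 29.5 CPM against 21.9 to 23.0 CPM. In Nts the Sham sample of replicate 3 had 0 CPM against 22.3 to 24.4 CPM, in a library of 4586 counts.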

How the results depend on the processing

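Without the replicate block 0 regions were called for each of the 4 transcripts. Pfkl, Mdh2, Ckb and Aacs were called in 14, 9, 12 and 6 regions by DESeq2, in 13, 7, 6 and 9 without the low-count filter and in 23, 13, 6 and 18 with pairs 4 and 5 only. Leaving out each replicate gave 0 to 5, 0 to 2, 0 to 2 and 0 to 3 regions. Without replicate 4 or 5, mPoA and Arc, which hold all 6 calls, could not be fitted. With no block the log2FC of Ckb turned negative in PLC (-0.0064), InsularC (-0.15), mPoA (-1.14), MDT (-0.18) and raphe (-0.19), and with pairs 4 and 5 only that in LC turned positive (0.29).

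Leaving out replicates turned the log2FC of Pfkl in InsularC (-0.10 to 0.89), of Mdh2 in InsularC (-0.14 to 0.84) and MDT (-0.088 to 0.24), of Ckb in raphe (-0.0949 to 0.31), LC (-0.34 to 0.13) and Nts (-0.053 to 1.23), and of Aacs in PLC (-0.013 to 0.67), InsularC (-0.42 to 0.60) and CGC (-0.0748 to 1.08). The values below 0 came without replicate 4 for Pfkl, Mdh2 and Aacs. The mean ratio over regions ran from 0.56 to 0.91 for Pfkl, 0.64 to 0.98 for Mdh2, 0.60 to 0.76 for Ckb and 0.56 to 0.85 for Aacs.

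The F of the replicate term was 2.43 for Mdh2 and 2.40 for Aacs with a prior count of 0.5, below the threshold, and 3.57 for Ckb without Nts and ILC, above it. With a replicate left out it ran from 1.42 to 16.3 for Pfkl, 1.63 to 21.2 for Mdh2, 0.524 to 5.21 for Ckb and 0.944 to 20.9 for Aacs. In Sham the F of the region term with no replicate block was 0.355, 0.496, 0.478 and 1.35 for Pfkl, Mdh2, Ckb and Aacs, and with a replicate left out it ran from 1.247 to 1.82, 1.10 to 2.65, 1.64 to 3.69 and 1.71 to 2.66. The brainstem minus cortex difference with no block was 0.68 for Mdh2 and 0.84 for Ckb, without a call, and -0.49 for Aacs with median-ratio size factors. With a replicate left out it ran from -0.20 to 0.51 for Pfkl, 0.37 to 1.03 for Mdh2, 0.91 to 1.53 for Ckb and -0.62 to -0.13 for Aacs. The cause of these changes was not tested. The shallowest were the Sham libraries of replicate 3 in Nts and ILC, then that of replicate 1 in VTA (2041893 counts). Depth was ample in the Sham ILC library of replicate 1, but 82.9% of its counts lay on 50 transcripts.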
